A study of Homo sapiens with 12 samples.

Results

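A549 cells that had spent 6 h in poultry dust extract were set against A549 cells that had spent 1 h in it, across all genes, to follow which early rises decayed, persisted or grew. A549 is a human line from a lung adenocarcinoma. The comparison uses 4 of the 12 Illumina bead arrays of the study: 2 of A549 cells given 0.25% dust extract for 6 h and 2 given it for 1 h. The 2 A549 control arrays (medium alone, no time stated) serve as the baseline from which an early rise is counted, and the arrays of BEAS-2B, an immortalised human bronchial epithelial line treated in the same 3 ways, serve for a comparison between lines. All cells had been without serum overnight. The labels number the arrays of each group 1 and 2 without saying if they came from separate cultures. P-values therefore reflect how far these arrays differ, for biological or technical reasons. In bulk RNA, fewer expressing cells and less RNA per cell cannot be told apart.

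Between 17730 and 19453 of 47320 probes were detected on an A549 array, and replicate arrays correlated across features by 0.980 to 0.982. All 4 epithelial markers (KRT8, KRT18, EPCAM, CDH1) were detected on all 6 A549 arrays. So were AKR1B10, ALDH1A1 and ALDH3A1 of the 4 A549 markers, at mean log2 levels of 14.1 to 14.5, while AKR1C1 was detected on none. Of the alveolar type II markers SFTPA1, SFTPC and NKX2-1 were detected on none of the 6 arrays and SFTPB on 1. The leukocyte markers PTPRC and CD3E and all 3 endothelial markers were detected on none, although CD14 was detected on 6 arrays and LYZ on 5. Of the fibroblast markers, COL1A1 was detected on 0 arrays at 6 h, on 2 at 1 h and on 2 control arrays, COL1A2 on 1 array and PDGFRB on none, and the part of these in the results was not tested.

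Cells that meet an irritant or a microbial product first transcribe immediate early genes, whose induction needs no new protein. Many encode transcription factors (FOS and JUN proteins, EGR1, NR4A receptors), and their mRNAs are usually short-lived. The transcription factor NF-kB is held in the cytoplasm by IkB proteins until a signal destroys them. It then drives chemokine genes together with its own inhibitors, and some of its targets accumulate only over hours.

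The promoter stretches of 8 genes are shown here, taken from the 3 later courses described next. They were picked among genes that carry a motif searched for, so they do not represent all genes of a course. EGR1, PPP1R15A and CXCL2 fell between 1 h and 6 h. CCL20 and NFKBIA had risen at 1 h with no call afterwards, and CXCL5, IL32 and LTB were higher at 6 h. Each is the 120 bases before the RefSeq gene start (GRCh38.p14), written 5′ to 3′ on the gene's strand, with capitals on the motif found. The motif is a CArG box, which binds serum response factor, in EGR1 (chr5:138465359-138465478, plus strand). It is a cAMP response element (TGACGTCA) in PPP1R15A (chr19:48872301-48872420, plus strand). In the other 6 it is an NF-kB site: CXCL2 (chr4:74099196-74099315, minus strand), CCL20 (chr2:227813722-227813841, plus strand), NFKBIA (chr14:35404750-35404869, minus strand), CXCL5 (chr4:73998678-73998797, minus strand), IL32 (chr16:3065283-3065402, plus strand) and LTB (chr6:31582426-31582545, minus strand).
EGR1: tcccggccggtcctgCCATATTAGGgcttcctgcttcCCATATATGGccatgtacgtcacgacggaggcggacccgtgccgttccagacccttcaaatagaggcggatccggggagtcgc
PPP1R15A: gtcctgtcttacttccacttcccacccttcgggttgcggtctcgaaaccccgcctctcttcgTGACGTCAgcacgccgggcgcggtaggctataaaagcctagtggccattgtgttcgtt
CXCL2: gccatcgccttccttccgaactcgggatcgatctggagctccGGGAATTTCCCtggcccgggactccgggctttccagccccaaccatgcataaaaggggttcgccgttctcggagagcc
CCL20: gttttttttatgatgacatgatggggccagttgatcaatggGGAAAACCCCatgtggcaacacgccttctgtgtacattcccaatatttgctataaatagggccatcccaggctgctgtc
NFKBIA: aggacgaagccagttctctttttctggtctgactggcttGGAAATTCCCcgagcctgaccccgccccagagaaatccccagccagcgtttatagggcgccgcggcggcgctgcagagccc
CXCL5: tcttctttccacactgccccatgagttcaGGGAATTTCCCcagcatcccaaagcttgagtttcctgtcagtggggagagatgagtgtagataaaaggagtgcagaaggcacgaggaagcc
IL32: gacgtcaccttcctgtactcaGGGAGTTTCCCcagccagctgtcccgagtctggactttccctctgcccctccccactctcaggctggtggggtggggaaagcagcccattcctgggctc
LTB: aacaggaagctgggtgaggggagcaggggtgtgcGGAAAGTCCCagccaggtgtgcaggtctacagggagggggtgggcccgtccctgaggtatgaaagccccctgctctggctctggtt

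Features are named genes, each by 1 probe, or probes without a gene symbol, and 20060 were tested. A change is a difference of mean log2 levels, 6 h minus 1 h unless said otherwise, with its standard error (SE) and 2 arrays per group. It passed at a Benjamini-Hochberg adjusted p under 0.05 from limma, adjusted over all 20060 features. The labels state no pairing of the arrays, so the model without a pairing comes first. With the array number as a block within each line (the blocked model) more features passed, and the main counts are given for both. Where a change of a named gene has an adjusted p with the block alone, it did not pass without the block.

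Between 1 h and 6 h, 7 features passed without the block, which is 0.0349% of those tested: 6 were lower at 6 h (0.0299%) and 1 was higher (0.00499%). The 6 are the transcription factor genes FOSB, EGR1, NR4A1 and ETS2, the matricellular protein gene CCN2 and 1 unnamed probe, and the 1 that was higher is the gastrokine gene GKN2. With the block 47 passed (0.234%), 33 lower (0.165%) and 14 higher (0.0698%). At an unadjusted p under 0.05 there were 720 without the block. The median change of all features was 0.004. As a count without a model, 52 features (0.259%) were lower at 6 h by over 2-fold on both array numbers and 15 (0.0748%) were higher. Leaving out 1 A549 array at a time left between 2 and 6 passing features without the block. With the block it left 8 without number 1 of either the 6 h or the 1 h arrays, 15 without number 2 at 6 h, 13 without number 2 at 1 h and 24 without either control array. FOSB and the unnamed probe passed in all 12 of the leave-one-out fits without the block, NR4A1 in 10, GKN2 in 9, EGR1 and ETS2 in 6 and CCN2 in 1. EGR1 and ETS2 lost that call whichever of the 6 A549 arrays was left out, and kept it only where a BEAS-2B array was left out. With the block, FOSB, EGR1, PRDM1, CCN1, CCN2, CSRNP1 and the unnamed probe passed in all 12 such fits and ATF3 in 11. JUN, NR4A1, BAAT and GKN2 passed in 10, and NR4A2, NCALD and LTB in 9. ETS2, BHLHE40, RASD1, EFNA1 and SOD2 passed in 8, lost without any of the 4 dust arrays of A549. The other named genes passed in 6 or fewer and lost their call without any of the 6 A549 arrays, except CXCL2, given below. The unnamed probe (ILMN_2410145) stood at 4.53 and 4.70 at 6 h, 7.62 and 7.50 at 1 h, and 4.65 and 4.60 in controls, detected at 1 h alone (change -2.94, SE 0.20, adjusted p = 0.000169 without the block).

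**Figure D1:**
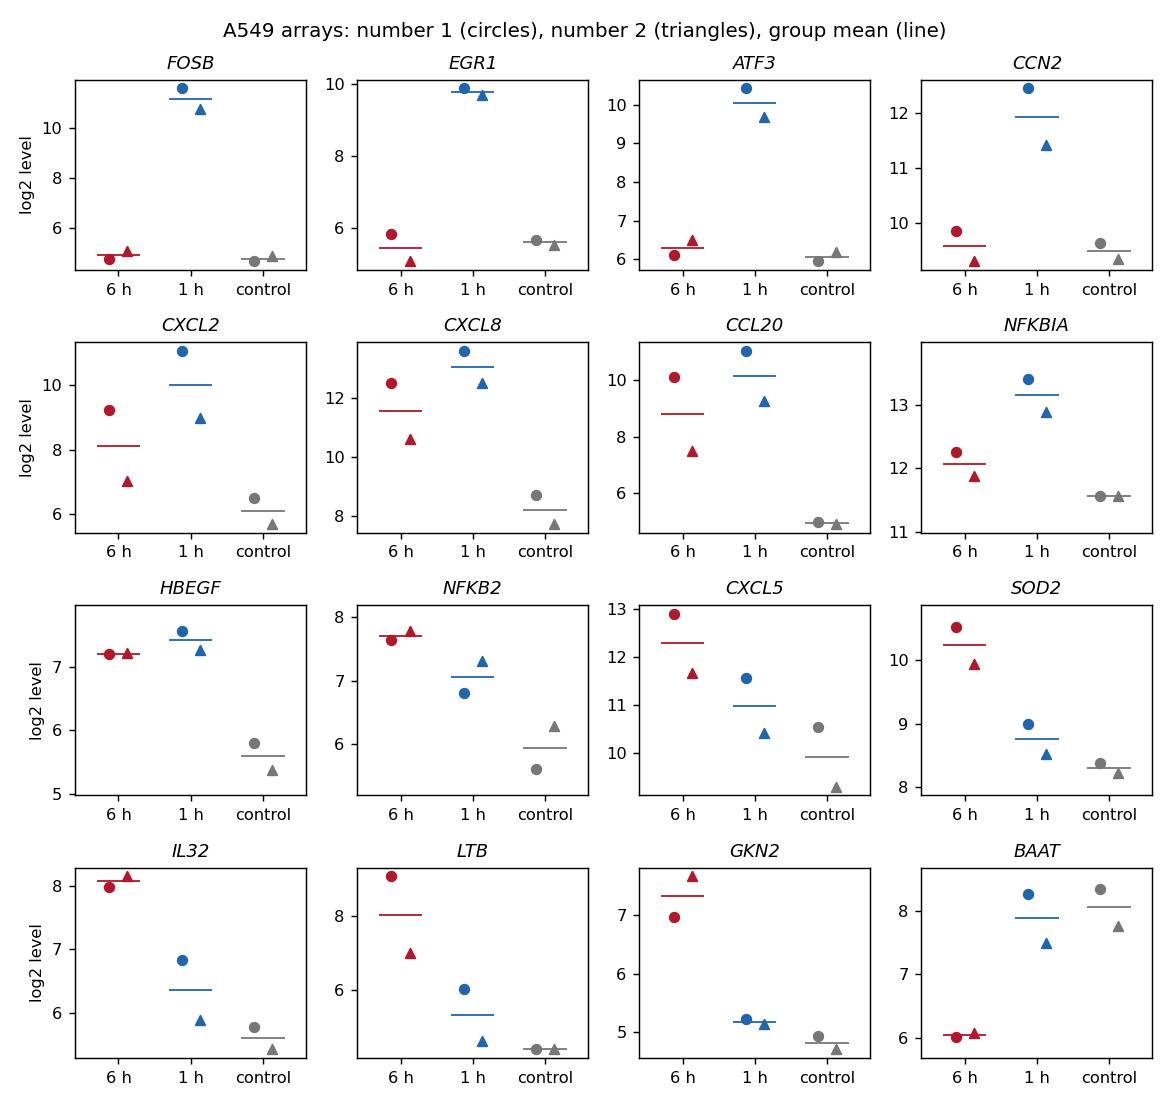
Normalised log2 level of 16 genes on each A549 array at 6 h, at 1 h and in medium control (circles for number 1, triangles for number 2, lines at the mean of 2 arrays), with a separate vertical scale per gene that does not start at 0. FOSB stood at 4.79 and 5.08 at 6 h against 11.60 and 10.77 at 1 h, and GKN2 at 6.98 and 7.67 at 6 h against 5.22 and 5.14 at 1 h.

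The FOS and JUN proteins pair to form the AP-1 transcription factor. FOSB had log2 levels of 4.79 and 5.08 at 6 h, 11.60 and 10.77 at 1 h, and 4.68 and 4.90 in control cells. It was above background on both 1 h arrays and on none of the 6 h or control arrays. On the main normalized values its 6 h level was at least 60.9-fold lower (change -6.25, SE 0.35, adjusted p = 5.56e-05 without the block and 6.45e-05 with it). The change was smaller on values without background correction (-4.795, adjusted p = 3.1e-05 without the block) and with an offset of 50 (-5.193, 4.65e-05). ATF3, an AP-1 partner induced by stress, stood at 6.10 and 6.49 at 6 h, 10.43 and 9.68 at 1 h, and 5.94 and 6.18 in controls. It fell 13.5-fold in the blocked model (change -3.76, SE 0.33, adjusted p = 0.0015), against an adjusted p of 0.112 without the block. JUN stood at 6.39 and 6.95 at 6 h, 9.43 and 9.25 at 1 h, and 7.33 and 7.67 in controls. It fell with the block (change -2.67, SE 0.26, adjusted p = 0.00313, 0.239 without), and both of its 6 h values lay below both control values. MAFF, a small MAF protein, had levels of 6.69 and 6.02 at 6 h, 7.82 and 7.51 at 1 h, and 5.53 and 5.32 in controls, and fell with the block (change -1.31, SE 0.20, adjusted p = 0.0412).

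Of the 11 AP-1 genes tested (12 listed), 4 fell with the block and 1 of them without it (0.165% and 0.0299% of all features did). None rose, and 10 were lower at 6 h on both array numbers, a direction that 27.4% of all features had. The median change of the 11 was -1.23, and this and the later lists were chosen with earlier results of these data known. Among the 10 was BATF2, which no A549 array detected. JUNB had a change of -2.11 (adjusted p = 0.0564 with the block), FOS of -1.23 (adjusted p = 0.0975) and FOSL1 of -0.89 (adjusted p = 0.244), none of which passed. FOS was at 6.81 and 5.51 at 6 h, against 7.57 and 7.22 at 1 h, so its groups did not overlap, as was so for 16.0% of all features in that direction.

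EGR1, a zinc finger factor of growth signals, stood at 5.83 and 5.08 at 6 h, 9.87 and 9.68 at 1 h, and 5.68 and 5.54 in controls. It fell (change -4.33, SE 0.54, adjusted p = 0.0243 without the block and 2.78e-05 with it) and 1 of its 2 arrays at 6 h did not detect it. On values without background correction the EGR1 change was -3.18 and did not pass without the block (adjusted p = 0.0851). NR4A1 and NR4A2 are orphan nuclear receptors. NR4A1 stood at 5.24 and 5.76 at 6 h, 7.91 and 7.70 at 1 h, and 4.90 and 5.02, not above background, in controls (change -2.30, SE 0.23, adjusted p = 0.00581 without the block). NR4A2 stood at 7.50 and 8.54 at 6 h, 10.62 and 10.70 at 1 h, and 7.04 and 7.95 in controls, and fell with the block (change -2.64, SE 0.32, adjusted p = 0.0118). NAB2, a corepressor that binds EGR1, fell as well with the block (change -1.20, SE 0.19, adjusted p = 0.0447), a call kept in 2 of 12 leave-one-out fits. All 8 tested genes of the EGR and NR4A group were lower at 6 h on both numbers (27.4% of all features were), with a median change of -1.0. Of them, 4 passed with the block and 2 without it (0.165% and 0.0299% of all features fell). Of the 8, EGR3 and NR4A3 were detected on no 6 h and no control array.

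ETS2, an ETS family factor, stood at 7.61 and 7.50 at 6 h, 9.06 and 9.05 at 1 h, and 8.09 and 8.09 in controls. It fell 2.83-fold (change -1.50, SE 0.18, adjusted p = 0.023 without the block). PRDM1 encodes the repressor BLIMP1. It stood at 4.80 and 5.83 at 6 h, 7.20 and 8.48 at 1 h, and 5.37 and 6.59 in controls, and fell with the block (change -2.53, SE 0.17, adjusted p = 0.000224, 0.288 without). Its number 1 array at 6 h was not above background. The number 2 arrays lay above the number 1 arrays in all 3 groups, and the 6 h value lay below the 1 h value on each number. Of the 22 other early transcription factors tested, 5 fell with the block (0.165% of all features did) and 1 without it (0.0299% did). None of the 22 rose, and their median change was -0.41. Among genes that fell with the block were also CSRNP1 (change -2.30, SE 0.17), BHLHE40 (change -1.76, SE 0.20), which represses transcription, and KLF10 (change -1.21, SE 0.16). Their adjusted p-values with the block were 0.000518, 0.00863 and 0.0231. BHLHE40 and KLF10 had not passed at 1 h over control (adjusted p = 0.0722 and 0.0675 with the block).

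**Figure D2:**
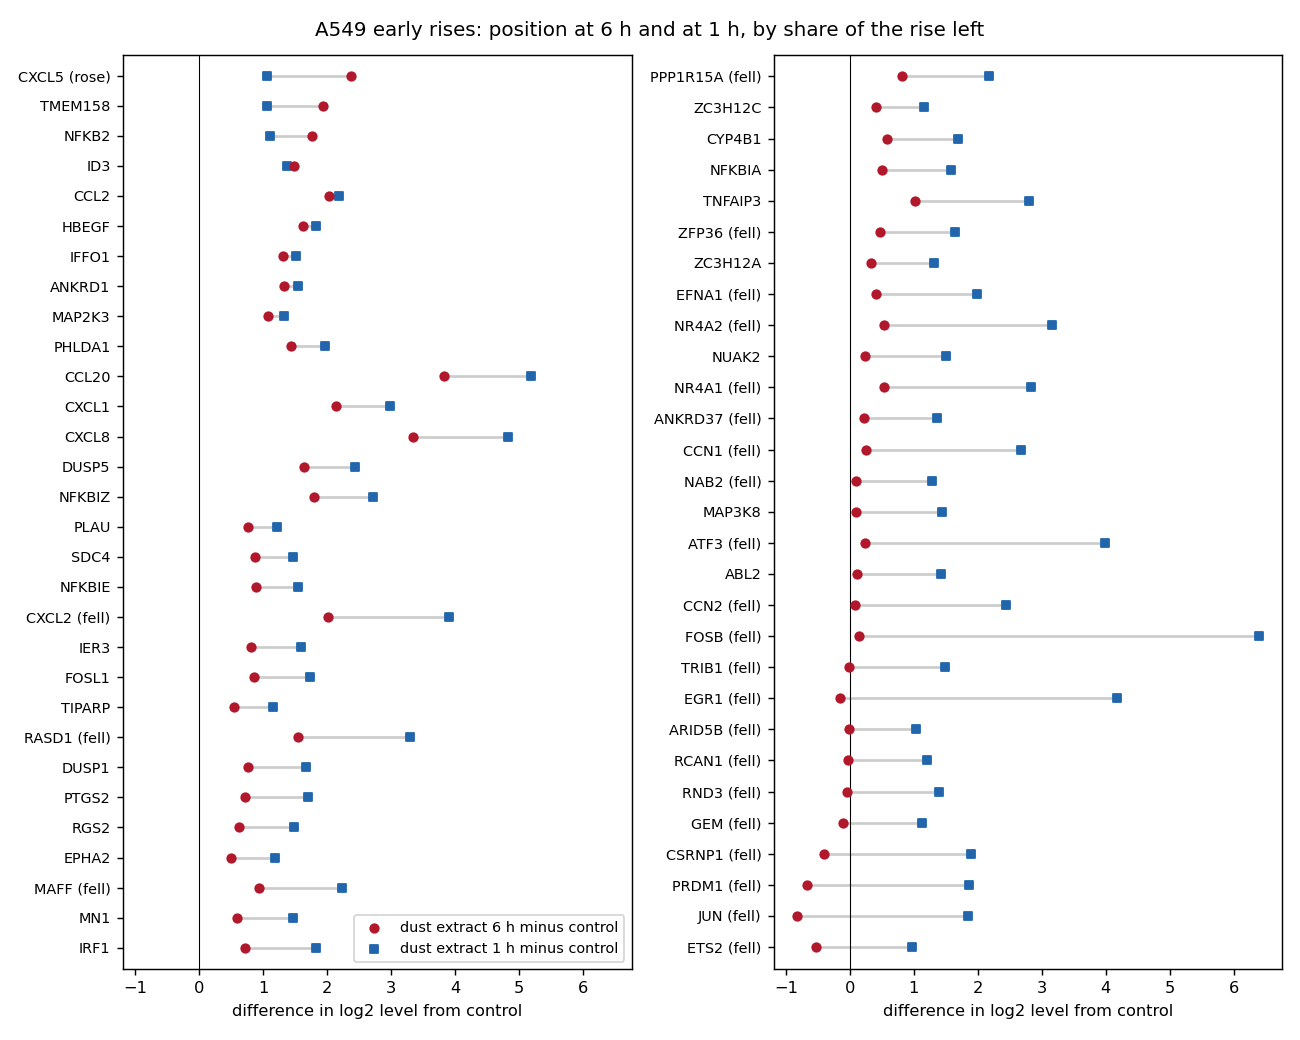
Difference in log2 level from control of the named early rises (those that passed at 1 h with the block), at 6 h (circles) and at 1 h (squares), sorted from the largest to the smallest share of the rise left at 6 h, with the later call in brackets. FOSB lies at 0.15 at 6 h and 6.40 at 1 h, and CXCL5, TMEM158, NFKB2 and ID3 lie higher at 6 h than at 1 h.

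The CCN proteins are secreted matricellular factors whose genes are targets of the YAP coactivator and of serum response factor. CCN2 stood at 9.85 and 9.30 at 6 h, 12.46 and 11.42 at 1 h, and 9.64 and 9.35 in controls. It fell 5.15-fold (change -2.37, SE 0.32, adjusted p = 0.0432 without the block and 0.00127 with it). CCN1 stood at 8.12 and 7.78 at 6 h, 10.36 and 10.37 at 1 h, and 7.53 and 7.85 in controls, and fell with the block (change -2.42, SE 0.21, adjusted p = 0.00133). No other of the 12 tested genes of that list passed (0.165% of all features fell with the block), and the median change was -0.29. ANKRD1, another YAP target, was at 7.49 and 7.71 at 6 h, 7.80 and 7.84 at 1 h, and 6.19 and 6.36 in controls.

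Among genes of mRNA decay and growth arrest, ZFP36 and PPP1R15A fell. ZFP36 encodes tristetraprolin, which speeds the decay of cytokine mRNAs. It stood at 10.40 and 10.32 at 6 h, 11.68 and 11.40 at 1 h, and 9.90 and 9.88 in controls, and fell with the block (change -1.18, SE 0.17, adjusted p = 0.0273). PPP1R15A, a phosphatase subunit that restores translation after stress, stood at 10.05 and 10.17 at 6 h, 11.72 and 11.24 at 1 h, and 9.21 and 9.39 in controls (change -1.37, SE 0.20, adjusted p = 0.031 with the block). These were the 2 of 16 tested genes of that list that passed (0.165% of all features fell with the block). Of the 16, 13 were lower on both numbers (27.4% of all features were), and the median change was -0.54. ZC3H12A, an RNase of cytokine mRNAs, had a change of -0.99 (adjusted p = 0.119 with the block).

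Of 20 MAP kinase phosphatase and receptor feedback genes tested, 3 fell with the block (0.165% of all features did) and none rose, with a median change of -0.38. RASD1, a small GTPase, stood at 8.40 and 8.92 at 6 h, 10.35 and 10.48 at 1 h, and 6.57 and 7.66 in controls. It fell with the block (change -1.75, SE 0.24, adjusted p = 0.0263) and was still above control there (change 6 h minus control 1.55, adjusted p = 0.0427). TRIB1, a pseudokinase, fell with the block (change -1.49, SE 0.22, adjusted p = 0.0273), and stood at 9.57 and 9.06 at 6 h, 11.04 and 10.58 at 1 h, and 9.59 and 9.06 in controls. RND3, a small GTPase that opposes RhoA, stood at 8.48 and 8.13 at 6 h, 9.89 and 9.60 at 1 h, and 8.48 and 8.23 in controls, and fell with the block (change -1.44, SE 0.19, adjusted p = 0.0202). DUSP5, a phosphatase of ERK, stood at 10.82 and 11.09 at 6 h, 11.79 and 11.71 at 1 h, and 9.13 and 9.51 in controls. Its change of -0.79 did not pass (adjusted p = 0.425 with the block), while its level at 6 h was above control (change 1.64, adjusted p = 0.041 with the block). DUSP1 had a change of -0.91 (adjusted p = 0.0991 with the block).

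Other genes that fell with the block were RHOB (change -1.23) and GEM (-1.24), which are small GTPases, RCAN1 (-1.24), an inhibitor of calcineurin, SLC2A3 (-1.83), a glucose transporter, EFNA1 (-1.58), an ephrin ligand, ARID5B (-1.04) and ANKRD37 (-1.14). ARID5B passed in 0 of the 12 blocked leave-one-out fits and ANKRD37 in 2, so leaving out nearly any array ended these calls. RHOB and SLC2A3 had not passed at 1 h over control (adjusted p = 0.122 and 0.103 with the block). Of the 33 features that fell, 8 were no early rise. BAAT, which joins bile acids to amino acids, NCALD, a neuronal calcium sensor, and FOXA3, a forkhead factor, were also below control at 6 h, as were 8 features in all (0.0399%). BAAT stood at 6.02 and 6.08 at 6 h, 8.27 and 7.50 at 1 h, and 8.35 and 7.77 in controls (change -1.84, SE 0.21, adjusted p = 0.00863 with the block).

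With the block 66 features, 60 of them named, had risen at 1 h over control (0.329% of those tested), and without it 18 (0.0897%). Of the 66, 25 fell between 1 h and 6 h, 1 rose further and 40 had no call, and without the block 5 of the 18 fell, 0 rose further and 13 had no call. Leaving out 1 array moved these blocked counts: the 66 early rises became 47 without either 6 h array, 14 and 20 without number 1 and number 2 at 1 h, and 10 and 32 without number 1 and number 2 of the controls. The 25 that fell became 7 to 14 without any one A549 array. These are descriptions: the early rise and the later fall share the 1 h arrays, so a high value on a 1 h array adds to both. On both array numbers 60 of the 66, which were chosen on these 1 h arrays, were lower at 6 h than at 1 h (27.4% of all features were). The share of the 1 h rise left at 6 h, on the log2 scale, had a median of 41.1% and ran from -55.1% to 223%. It was up to 25% in 25 features, between 25% and 75% in 31, up to 125% in 7 and above that in 3. Its median was 3.18% in the features that fell and 58.3% in those with no call. The median 1 h rise was 1.99 in those that fell and 1.57 in those with no call.

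A choice of early rises on one array number with the share read on the other takes the chosen arrays out of the reading. The 142 features at least 2-fold above control at 1 h on number 1 had a median 6 h rise of 0.31 and a median 1 h rise of 1.00 on number 2, and the first median was 31.3% of the second. The 90 chosen on number 2 had a median 6 h rise of 0.52 and a median 1 h rise of 1.51 on number 1, and the first was 34.8% of the second. Within the 66, the median share was 44.0% on number 1 and 32.6% on number 2. In both choices the median 6 h rise was thus below the median 1 h rise.

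Above control at 6 h in the blocked model were 16 of the 66 (48 features or 0.239% of all were, against 1, GKN2, or 0.00499% without the block). Leaving out 1 A549 array gave 0 to 36 such features with the block, 0 without number 1 of the controls and 4 without number 1 at 6 h. The 16 were CXCL5, CXCL2 and RASD1, and 13 of those with no later call. The other 27 with no call were not called above control at 6 h, and a missed threshold does not show that they had returned. TNFAIP3, which encodes the A20 inhibitor of NF-kB signalling, is one of these. It stood at 6.84 and 5.46 at 6 h, 8.77 and 7.10 at 1 h, and 4.76 and 5.52 in controls, so that a 6 h value lay within the control range on number 2 (change -1.79, adjusted p = 0.312 with the block). NFKBIA, the main IkB gene, stood at 12.25 and 11.88 at 6 h, 13.41 and 12.89 at 1 h, and 11.57 and 11.56 in controls (change -1.08, adjusted p = 0.11 with the block).

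Among chemokines, 1 fell, 1 rose further and others had no later call. CXCL8, the neutrophil attractant interleukin 8, stood at 12.52 and 10.63 at 6 h, 13.61 and 12.51 at 1 h, and 8.72 and 7.74 in controls. Its change of -1.48 did not pass (adjusted p = 0.244 with the block), 69.3% of the log2 rise was left, and its 6 h level was 10.1-fold above control (adjusted p = 0.00627 with the block). The other CXCL8 probe had a change of -1.77. CCL20, which attracts CCR6-bearing cells, stood at 10.09 and 7.48 at 6 h, 11.03 and 9.25 at 1 h, and 5.01 and 4.92, not above background, in controls. It was at least 11.9-fold above control at 6 h (adjusted p = 0.0118 with the block), with a change of -1.35 that did not pass (adjusted p = 0.451). CCL2, a monocyte attractant, stood at 10.95 and 8.55 at 6 h, 10.95 and 8.89 at 1 h, and 8.35 and 7.10 in controls, with 92.3% of its rise left. The number 1 arrays lay above the number 2 arrays for each of these 3 genes in each group, apart from CCL20 in controls, where neither array detected it.

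CXCL2, a neutrophil attractant, was the 1 chemokine that fell, and this call ended in 10 of 12 blocked fits that left out 1 array (all but those without a control array of A549). It stood at 9.23 and 7.04 at 6 h, 11.06 and 8.98 at 1 h, and 6.52 and 5.70 in controls (change -1.89, SE 0.30, adjusted p = 0.045 with the block and 1 without), with 51.7% of its rise left. CXCL1, its close relative, stood at 11.51 and 8.65 at 6 h, 11.75 and 10.10 at 1 h, and 8.56 and 7.33 in controls (change -0.84, adjusted p = 0.589 with the block). CXCL5 was the 1 early rise that rose further. It stood at 12.91 and 11.68 at 6 h, 11.56 and 10.41 at 1 h, and 10.54 and 9.29 in controls (change 1.31, SE 0.18, adjusted p = 0.0251 with the block and 1 without), so that its 6 h rise over control was 223% of its 1 h rise. Leaving out any of the 6 A549 arrays ended that call. Both 6 h values lay above the control and the 1 h value of their own number. The other CXCL5 probe had a change of 0.86. Of 13 chemokines tested (17 listed), 1 fell and 1 rose in the blocked model (0.165% and 0.0698% of all features did). In that model 6 were early rises and 5 were above control at 6 h (0.329% and 0.239% of all features were). The median change of the 13 was -0.17. The probes of CXCL1, CXCL2 and other near relatives could take up each other's transcripts, which was not tested.

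Several other early rises kept differing shares of their 1 h rise at 6 h. HBEGF, a ligand of the EGF receptor, stood at 7.21 and 7.21 at 6 h, 7.57 and 7.27 at 1 h, and 5.80 and 5.38 in controls, with 88.6% of its rise left. ID3, an inhibitor of basic helix-loop-helix factors, stood at 11.68 and 11.89 at 6 h, 11.68 and 11.68 at 1 h, and 9.97 and 10.64 in controls. PHLDA1, MAP2K3 and IFFO1 had 73.2%, 80.7% and 86.3% of their log2 rise left and were above control at 6 h with the block. TMEM158 and NFKB2 (the p100 and p52 NF-kB subunit) had more than the whole 1 h rise, 181% and 159%. TMEM158 stood at 10.29 and 10.03 at 6 h, 9.29 and 9.29 at 1 h, and 8.11 and 8.33 in controls. NFKB2 stood at 7.64 and 7.79 at 6 h, 6.81 and 7.31 at 1 h, and 5.61 and 6.29 in controls. Neither change passed (0.87 and 0.66, adjusted p = 0.114 and 0.348 with the block). IER3, IRF1, NFKBIE and TIPARP, early rises with no later call, had 50.6%, 39.4%, 57.5% and 47.5% left, and CYP4B1, not above background in controls, had 33.9%. PTGS2, the prostaglandin synthase of inflammation, stood at 11.83 and 11.27 at 6 h, 12.81 and 12.26 at 1 h, and 11.07 and 10.59 in controls. It had 42.1% of its rise left, no later call and no call above control at 6 h (adjusted p = 0.426 with the block). Its change was -0.99, and its other probe had a change of -1.51.

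GKN2, a secreted gastrokine first known from stomach, was higher at 6 h. It stood at 6.98 and 7.67 at 6 h, 5.22 and 5.14 at 1 h, and 4.94 and 4.71 in controls. It was higher at 6 h than at 1 h, where 1 of 2 arrays detected it (change 2.15, SE 0.24, adjusted p = 0.012 without the block and 0.00472 with it) and at least 4.31-fold above control, where no array detected it. On values without background correction its change was 1.23 and did not pass (adjusted p = 0.0523). None of the other 10 tested gastrokine and mucosal genes passed.

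LTB, which encodes lymphotoxin beta, a membrane ligand of the TNF family, stood at 9.09 and 7.01 at 6 h, 6.03 and 4.64 at 1 h, and 4.41 and 4.42 in controls. It was higher at 6 h than at 1 h in the blocked model, where 1 of the 2 arrays at 1 h and none in controls detected it (change 2.71, SE 0.38, adjusted p = 0.0263, 0.497 without), and its other probe had a change of 0.84. IL32, a cytokine, stood at 7.99 and 8.16 at 6 h, 6.83 and 5.88 at 1 h, and 5.77 and 5.42 in controls (change 1.72, SE 0.25, adjusted p = 0.0303 with the block). SOD2, the mitochondrial superoxide dismutase and a known NF-kB target, stood at 10.53 and 9.95 at 6 h, 9.01 and 8.53 at 1 h, and 8.38 and 8.22 in controls (change 1.47, SE 0.18, adjusted p = 0.0118 with the block). None of LTB, IL32 and SOD2 had passed at 1 h over control, and each 6 h value lay above both 1 h values, as was so for 16.5% of all features. GPRC5A, an orphan receptor of lung epithelium, was higher by 1.32, TRIM31, a ubiquitin ligase, by 1.30, CEMIP, which degrades hyaluronan, by 1.47 (a call kept in 0 of 12 leave-one-out fits) and SPNS2, a sphingosine-1-phosphate transporter, by 1.67. SOX8, CA8 and CYP26A1 were higher by 1.21, 1.15 and 1.12, all with the block. At 1 h, 1 of 2 arrays detected TRIM31, SPNS2, CA8 and CYP26A1. With these, 12 features had risen at 6 h over both 1 h and control with no call at 1 h. CXCL5 was an early rise, and CYP26A1 was not called above control (adjusted p = 0.142 with the block).

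**Figure D3:**
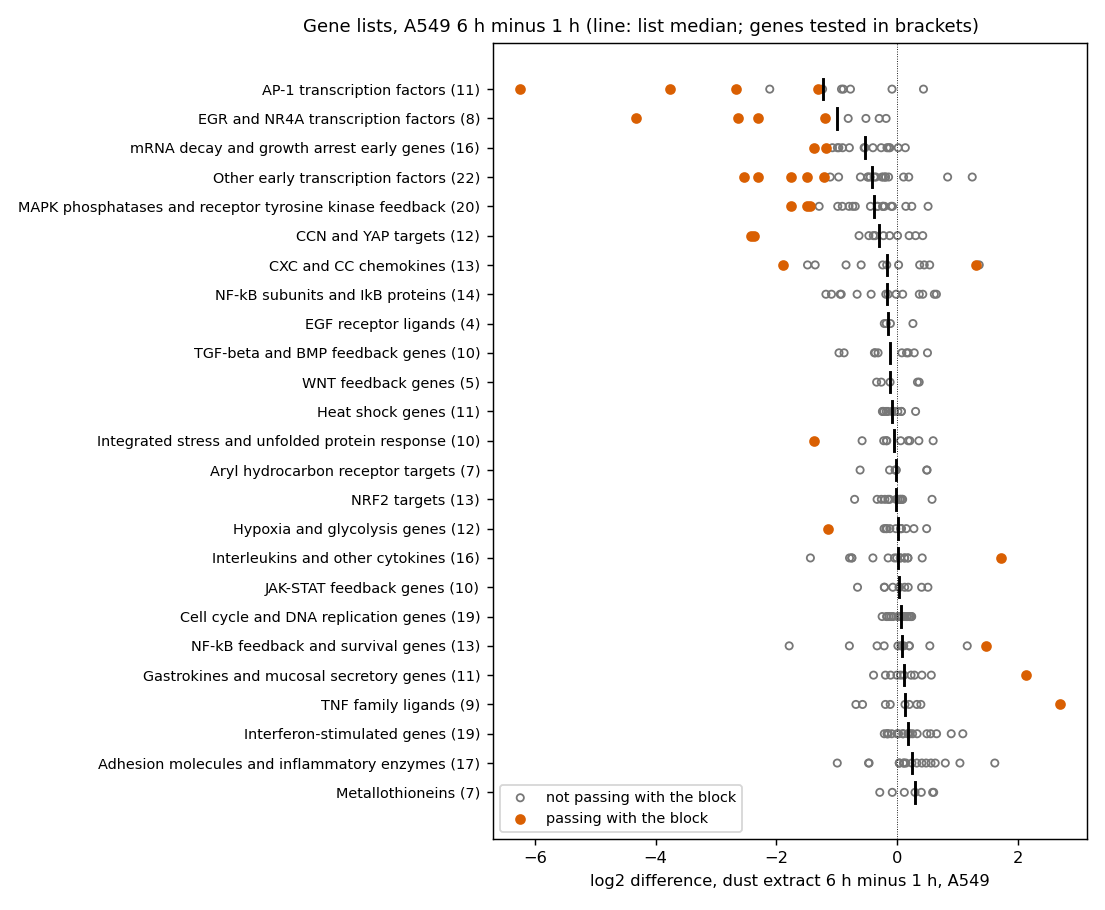
Change of each tested gene of the lists in A549, 6 h minus 1 h in log2 units, with filled points for genes that passed with the block and a bar at the list median. AP-1 genes have a median of -1.23 and EGR and NR4A genes of -1.0, against 0.004 for all features. The lists were chosen with earlier results of these data known.

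Lists of other functions had few or no calls in the blocked model, in which 0.234% of all features passed. None of 14 NF-kB subunits and IkB proteins passed (median -0.17), and of 13 NF-kB feedback and survival genes only SOD2 rose (median 0.08). None of 17 adhesion molecules and inflammatory enzymes passed, with a median change of 0.25 and the highest value for OLR1 (1.62). None of 19 interferon-stimulated genes passed, although 9 were higher and 0 were lower on both numbers (28.5% of all features were higher on both), with a median of 0.18. Of these 9, IFI44, IFI44L, OAS2 and IFIH1 were detected on no 6 h array. Without the block the SE in this list reached 2.5 (OAS2), against a median of 0.258 over all features, which limits what could pass. That SE comes from the fit of all 12 arrays, BEAS-2B included, and does not describe spread among the A549 arrays. In A549 no array detected OAS2, and its 6 h value differed from its 1 h value by 0.51 on number 1 and 0.01 on number 2. None of 13 NRF2 targets, 7 aryl hydrocarbon receptor targets, 11 heat shock genes, 19 cell cycle genes, 10 JAK-STAT feedback genes or 7 metallothioneins passed. Nor did any of 4 EGF receptor ligands, 10 TGF-beta and BMP feedback genes or 5 WNT feedback genes. IL32 was the 1 call among 16 interleukins and other cytokines, LTB among 9 TNF family ligands, PPP1R15A among 10 genes of the stress and unfolded protein response and ANKRD37 among 12 hypoxia and glycolysis genes. Without the block none of the lists of this paragraph had a call.

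The gene with the highest change, none of which passed, was BATF3 (0.44) among AP-1 genes, EGR3 (-0.18) among EGR and NR4A genes and ID1 (1.25, adjusted p = 0.243 with the block) among other early transcription factors. It was PHLDA2 (0.14) among decay and growth arrest genes, SPRY1 (0.52) among MAP kinase feedback genes, MYOF (0.43) among CCN and YAP targets and CCL5 among chemokines. CCL5, a T cell attractant, stood at 8.28 and 7.43 at 6 h, 6.43 and 6.55 at 1 h, and 6.04 and 6.89 in controls, above both 1 h values but not passing (change 1.37, adjusted p = 0.219 with the block). The lowest change was -1.18 for BCL3 among NF-kB subunits and IkB proteins and -0.68 for TNFSF15 among TNF ligands.

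In the lists with no call, the extremes were HMOX1 (-0.70) and TXNRD1 (0.58) among NRF2 targets, TIPARP (-0.61) and CYP1B1 (0.50) among aryl hydrocarbon receptor targets, and PIM1 (-0.65) and SOCS1 (0.51) among JAK-STAT feedback genes. They were PMEPA1 (-0.96) and FST (0.51) among TGF-beta and BMP feedback genes, RNF43 (-0.34) and AXIN2 (0.37) among WNT feedback genes and TGFA (0.27, the highest) among EGF receptor ligands. Heat shock genes ran between HSP90AA1 (-0.24) and HSPA6 (0.31), cell cycle genes between CDK1 (-0.24) and PLK1 (0.25), and metallothioneins between MT1E (-0.28) and MT2A (0.61). RSAD2 (-0.21), which no A549 array detected, was the lowest interferon-stimulated gene. TFF3 (-0.39) was the lowest mucosal gene, and DDIT4 (0.60) and NDRG1 (0.49) were the highest of the stress and hypoxia lists. CXCL3, a relative of CXCL2, had a change of -0.24 and was detected on 0 arrays at 6 h, 1 at 1 h and 1 in controls. ICAM1, IL1B and CYP1A1 were not above background on any A549 array at 6 h or 1 h, and the changes of GAPDH and ACTB were -0.07 and -0.02.

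IL6 stood at 7.67 and 4.65 at 6 h, 9.29 and 5.89 at 1 h, and 4.90 and 4.54, not above background, in controls. Its groups overlapped, and it was detected at 6 h on number 1 alone.

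Motifs were searched on both strands in the 250 bases before the RefSeq start for 20 of the 24 named early rises that fell, 27 of 34 with no call (1 further probe is annotated to a miRNA gene) and 8 of 12 named genes higher at 6 h. A CArG box was in 3 of the 20 (EGR1, RCAN1, RND3), 0 of the 27, 0 of the 8 and 1.14% of all 27305 promoters. An NF-kB site was in 2 of the 20 (CCN2, CXCL2), 10 of the 27 (among them CCL20, CXCL1, NFKBIA, NFKBIZ and TNFAIP3), 4 of the 8 (CXCL5, IL32, LTB, TRIM31) and 9.57% of all promoters. A cAMP response element was in MAFF and PPP1R15A of the 20, DUSP1 and EPHA2 of the 27, IL32 of the 8 and 1.77% of all. The AP-1 site TGANTCA was in 0 of the 20, in 4 of the 27 (ABL2, ANKRD1, CXCL8, MAP2K3), in 0 of the 8 and in 6.60% of all. These counts describe letters in a window and were not tested.

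The same change was measured in BEAS-2B, where 12 features (0.0598%) passed between 1 h and 6 h without the block and 135 with it (0.673%). A test of the difference between lines found 0 features that passed without the block (695 at an unadjusted p under 0.05) and 4 with it (0.0199%): 3 with a lower value in A549 (0.015%: EGR1, PRDM1, SCG5) and OVOL1 with a higher one (0.00499%). EGR1 had a change of -4.33 in A549 and -1.11 in BEAS-2B (difference -3.22, SE 0.28, adjusted p = 0.00753 with the block). In BEAS-2B its levels were 10.95 and 9.51 at 6 h, 11.86 and 10.81 at 1 h, and 10.20 and 8.87 in controls, each above the A549 level of the same group and number. PRDM1 had a change of -2.53 in A549 and was not above background on any BEAS-2B array of these groups (difference -2.51, SE 0.24, adjusted p = 0.0077 with the block). FOSB had a change of -6.25 in A549 and -5.78 in BEAS-2B, a difference of -0.47 with an SE of 0.47 (adjusted p = 0.828 with the block). GKN2 had a change of 2.15 in A549 and 0.14 in BEAS-2B (difference 2.01, SE 0.32, adjusted p = 0.145 with the block), and LTB of 2.71 in A549 and 0.04 in BEAS-2B (difference 2.67, SE 0.54, adjusted p = 0.263). None of the 14 features that were higher at 6 h in A549 passed in the test of the difference.

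**Figure D4:**
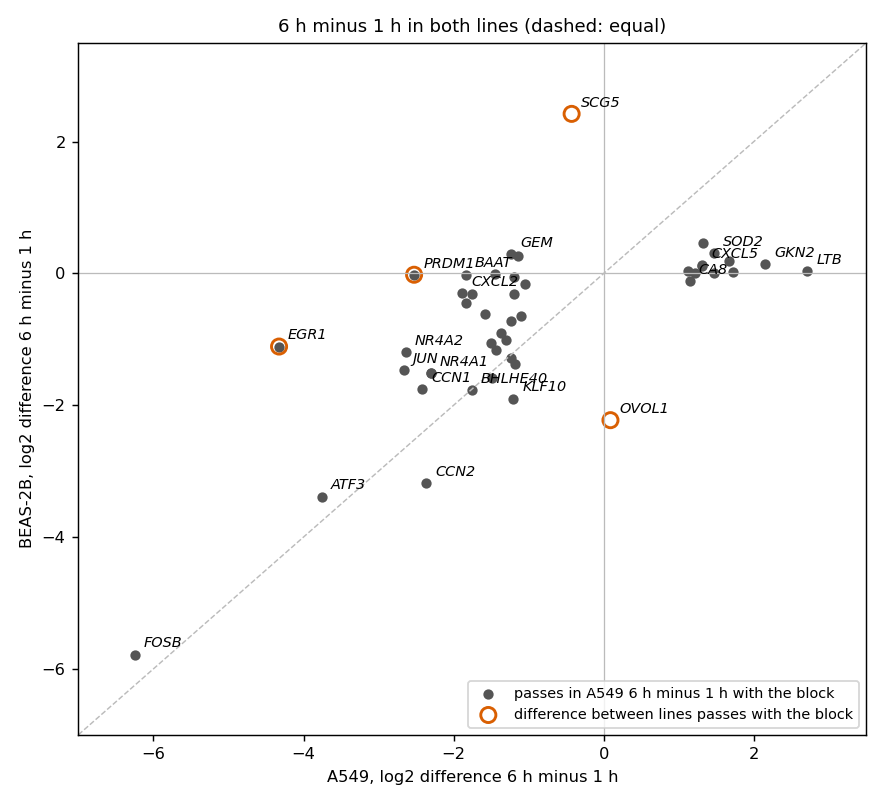
Change in log2 level (6 h minus 1 h) in A549 on the horizontal axis and in BEAS-2B on the vertical axis, for genes that passed in A549 with the block (filled) and genes whose difference between lines passed with it (ringed), with equal changes on the dashed line. EGR1 lies at -4.33 in A549 and -1.11 in BEAS-2B, and FOSB at -6.25 in A549 and -5.78 in BEAS-2B.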

How the data were processed

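The study measured mRNA of A549 and BEAS-2B cells on 12 Illumina bead arrays. Per the file headers, the authors deposited unnormalized mean bead intensity per probe and array, read out by GenomeStudio 2011.1 per the submitters' processing notes. The same deposited table holds detection p-values, bead standard errors as a signal, and bead numbers. The bead numbers and standard errors were not used. A deposited matrix of normalized intensity values, whose method is not given in the sources used here, served as an alternative. For the genes checked, its changes nearly equalled those of quantile normalization without background correction (CCN2 -2.276 in both, EGR1 -3.181 and -3.18). These settings are therefore not separate checks.

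Intensities were processed with limma 3.58.1 in R 4.3.3 by neqc (normexp background correction, offset 16, quantile normalization, log2), where the detection p-values stood in for negative controls. A probe was kept where 2 or more of the 12 arrays detected it (p under 0.05), which held for 24467 of 47320, and the brightest probe stood for each of the 3421 genes with several. The 20060 features tested include 13035 named genes. Gene symbols come from the probe table supplied with the series. A single model with 6 group means used all 12 arrays, with residual degrees of freedom of 6 and prior ones of 4.71, so the BEAS-2B arrays help to set the spread used for A549. The median SE was 0.258, limited by the number of arrays. A fold against a group in which no array detected the probe is a lower bound, taken against the dimmest detected signal. It holds for the background correction and offset used here. For shares of a rise, levels were raised to that signal.

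The array number was also fitted as a block within each line. Deviations from group means correlated between same-numbered A549 arrays by 0.404 to 0.468, and with 2 arrays a group the numbers 1 and 2 give the same value. The labels state no pairing. Because the block moves the counts by over 1.5 times, the main counts of both fits are given.

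Named are all genes that passed without the block, those with the largest changes among genes that passed with it, the lowest and highest gene of each list and a panel of inflammatory genes. The same held for early rises and for genes that differed from control at 6 h: all that passed without the block, and those with the largest changes among the rest. Members and lists were chosen with earlier results of these data known. The script was tested on simulated data. GEM, RHOB, RCAN1, ARID5B, ID3, JUNB, ZC3H12A, MAP2K3, SCG5, OVOL1 and genes named only for a promoter motif and GJB2, RELB and EBI3 in the closing section stand outside that rule and were chosen after their values were seen. Values of probes annotated to miRNA genes are not reported here.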

Additional observations from a re-analysis of the deposited data

Results flagged for a closer look

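The change between 1 h and 6 h differed between A549 and BEAS-2B in the blocked test of the difference for 4 genes. For EGR1 the difference (A549 minus BEAS-2B) was -3.22 (adjusted p = 0.00753), and 10 of the 12 leave-one-out fits kept it, the exceptions being those without either A549 array at 1 h. For PRDM1 it was -2.51 (adjusted p = 0.0077), and 6 of 12 kept it, not those without any of the 4 A549 dust arrays or without number 2 of the BEAS-2B arrays at 6 h or 1 h. For SCG5, a chaperone of neuroendocrine secretion, it was -2.85 (adjusted p = 0.00753), with a change of -0.43 in A549 and 2.42 in BEAS-2B, and 9 of 12 kept it, not those without number 1 at 6 h or either array at 1 h of A549. For OVOL1, an epithelial zinc finger factor, it was 2.32 (adjusted p = 0.0196), with a change of 0.09 in A549, where it was not above background, and -2.23 in BEAS-2B, and 2 of 12 kept it. None of the 4 passed without the block.

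For 3 genes that passed in A549 with the block, the values in BEAS-2B differed in the opposite direction on both numbers, but the difference between lines did not pass. GEM had a change of -1.24 in A549 and 0.29 in BEAS-2B (adjusted p of the difference 0.161 with the block), where 1 array at 6 h and 0 at 1 h detected it, so its sign there rests on values mostly not above background. ANKRD37 had a change of -1.14 in A549 and 0.26 in BEAS-2B (0.213). CA8 had a change of 1.15 in A549 and -0.11 in BEAS-2B (0.22), where no array detected it at either time.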

How the results depend on the processing

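With the replicate block (array number within each line) 47 features passed between 1 h and 6 h in place of 7, 70 in place of 18 between control and 1 h, 56 in place of 1 between control and 6 h, and 4 in place of 0 for the difference between lines. Early rises then split into 25 that fell, 1 that rose further and 40 with no call. With the A549 arrays normalized and fitted alone, 8 passed between control and 1 h, 0 between control and 6 h, and 2 early rises had no call. With the replicate block added these became 48, 15 and 32, with 20 between 1 h and 6 h and 14 early rises that fell. With the normalization of all 12 arrays kept (chosen after seeing the data) that count was 25. Without a detection filter 5 passed between control and 1 h, of which 3 fell later and 2 had no call. Quantile normalization without background correction, an offset of 50 and the deposited matrix each gave 3 features between control and 6 h, and an intensity trend with a robust prior gave 2. GKN2 did not pass on values without background correction or on the deposited matrix (adjusted p = 0.0523 in both), nor with the A549 arrays alone (0.0972). CCN2 did not pass with the A549 arrays alone (0.243) or without a detection filter (0.175), and ETS2 did not with the A549 arrays alone (0.103). EGR1 had an adjusted p of 0.0758 to 0.175 in the 5 settings with all 12 arrays in which it did not pass and 2.78e-05 with the replicate block. Among these 5, the deposited matrix and quantile normalization without background correction nearly coincide (0.085 and 0.0851). The cause of these shifts was not tested.

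Leaving out each array in turn without the block gave 2 to 9 features between 1 h and 6 h, 3 to 16 between control and 1 h, 0 to 3 between control and 6 h and 0 for the difference between lines, with 2 to 6 early rises that fell, 0 that rose further and 0 to 11 with no call. The median share of the rise left was 41.1%. It was 32.8% for features that passed without the replicate block. A different measure, the median 6 h rise as a share of the median 1 h rise, was 31.3% for features chosen on number 1 at 2-fold and read on number 2, and 27.3% and 26.6% at 4-fold (chosen after seeing the data). No gene that passed in the main model or in the setting compared with it changed sign between the 2. Sign changes of genes that passed in neither were not counted apart. Of the values of single genes under the alternatives, 2190 stayed on their side of the threshold, 60 passed newly and 39 no longer passed. A median SE of 0.258 with 2 arrays a group limits what could pass, and a probe below background has only a bound.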

Other observations

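Beside the genes described above, 20 features were above control at 6 h in the blocked model without a call at 1 h or between 1 h and 6 h, and 5 were below control in the same way (0.239% and 0.0399% of all features were above and below control at 6 h). OLR1, a scavenger receptor, stood at 8.45 and 6.39 at 6 h, 6.49 and 5.10 at 1 h, and 4.62 and 4.62 in controls, and was at least 4.59-fold higher at 6 h than in controls, where no array detected it (adjusted p = 0.0203). GJB2, a gap junction protein gene, stood at 6.77 and 6.66 at 6 h, 5.93 and 5.73 at 1 h, and 5.46 and 5.22 in controls (6 h minus control 1.38, 1 control array above background, adjusted p = 0.0256). RELB, an NF-kB subunit, stood at 6.95 and 6.72 at 6 h, 6.36 and 6.57 at 1 h, and 4.71 and 5.67 in controls (6 h minus control 1.64, 1 control array above background, adjusted p = 0.0412). EBI3, a subunit of interleukin 27, stood at 6.55 and 6.15 at 6 h, 5.36 and 5.27 at 1 h, and 4.80 and 5.18 in controls (at least 2.19-fold higher, with no control array above background, adjusted p = 0.0354). TFCP2L1, an epithelial transcription factor, stood at 4.81 and 4.75 at 6 h, 5.95 and 5.56 at 1 h, and 6.18 and 5.82 in controls (at least 1.67-fold lower, with no 6 h array above background, adjusted p = 0.0379). Below control by the same test were also WIPF1, BCO1 and C9orf152, by differences of -1.13, -1.04 and -1.37, where no 6 h array detected WIPF1 and 1 detected C9orf152, and CD55, which blocks complement, was above it (1.82).

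MX1, an antiviral gene induced by interferon, stood at 8.15 and 5.0 at 6 h, 5.80 and 5.16 at 1 h, and 5.39 and 5.20 in controls. Its 6 h level was high on number 1 alone, and its change of 1.09 did not pass.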
